A study of Homo sapiens with 10 samples.

Results

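Distal H3K4me1 regions common to both lines were the stretches of the human genome that carried this histone mark in SKBR3 and in BT474 breast cancer cells and lay away from gene promoters. A region was kept where the islands of all 4 H3K4me1 lists overlapped, where the shared stretch was 200 bp or wider, and where its nearer edge was over 10 kb from every start site of a protein-coding transcript. Of 49616 regions covered in all 4 lists, 30223 (60.9%) met this rule, and they held 81.5 Mb of the 137 Mb that the lists shared. The other 19393 common regions, 55.9 Mb in all, lay within 10 kb of a start site and are given beside the distal ones where the groups differ. The regions were chosen by the presence of an island in each list, so their number, width and level are described and were not tested.

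H3K4me1 was mapped by ChIP-seq, which sequences DNA bound to a marked histone, in 2 replicates of SKBR3 and 2 of BT474, both established breast cancer lines with an amplified ERBB2 gene, which encodes HER2. The labels call these cells asynchronous and name no treatment. The study's own text has EGF given to them, and the lists do not settle which. HER2 was mapped by ChIP-exo, in which an exonuclease trims the bound DNA, after 3 h of vehicle (water) or of 100 ng/ml EGF without serum deprivation, with 1 peak list per line and treatment. Both lines were kept in 10% serum, SKBR3 in McCoy's 5A and BT474 in RPMI-1640, so that medium and line cannot be told apart. Nothing in the labels says that the H3K4me1 replicates came from separate cultures, and p-values then measure only the spread between these samples.

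H3K4me1, a single methyl group on lysine 4 of histone H3, is placed mainly by the methyltransferases KMT2C and KMT2D and is typical of enhancers, the DNA elements that raise transcription of a gene from a distance. An enhancer is opened by transcription factors that recognise short motifs in its DNA. In luminal breast epithelium these include FOXA1, GATA3, the AP-2 factors and the grainyhead-like factors, and AP-1 (FOS with JUN) is the usual enhancer factor downstream of EGF signalling. The mark alone does not separate active enhancers from primed ones, and no acetylation or expression data were used here.

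Stretches of 80 bp from distal common regions are shown to make visible what such a region holds. They come from regions whose nearest protein-coding gene is TFAP2C (the AP-2γ factor), GATA3 (a luminal factor), ESR1 (the oestrogen receptor), LRIG1 (an inhibitor of ERBB receptors) or KLF6 (an immediate early factor). Within the regions of each gene the stretch with most different motifs was taken, so these stretches were picked for their motifs and are no measure of how often motifs occur. The letters are the forward strand of GRCh37, and capitals mark AP-1 (TGACTCA), forkhead (TGTTTAC, the family of FOXA1) and AP-2 (GCCNNNGGC) matches on either strand. The positions are chr20:55181759-55181838 (TFAP2C), chr10:8899022-8899101 (GATA3), chr6:152040268-152040347 (ESR1), chr3:66644594-66644673 (LRIG1) and chr10:3873253-3873332 (KLF6). The ESR1 stretch is in an intron of that gene, and the others overlap no annotated gene.
TFAP2C: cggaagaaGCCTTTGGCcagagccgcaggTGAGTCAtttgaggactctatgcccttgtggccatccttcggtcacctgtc
GATA3: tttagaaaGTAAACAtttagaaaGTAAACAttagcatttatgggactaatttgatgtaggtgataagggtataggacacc
ESR1: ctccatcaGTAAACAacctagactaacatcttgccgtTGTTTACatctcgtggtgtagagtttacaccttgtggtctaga
LRIG1: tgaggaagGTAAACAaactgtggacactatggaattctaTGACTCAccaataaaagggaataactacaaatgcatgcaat
KLF6: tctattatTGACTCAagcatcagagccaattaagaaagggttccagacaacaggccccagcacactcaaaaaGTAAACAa

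The motifs shown were then counted over the whole set. In the central 400 bp of the 30055 distal common regions of that width or more, the forkhead letters were present in 11.1% (95% Wilson interval 10.8 to 11.5), against 4.93% of 30217 windows of the same length placed 3 kb outside the regions and outside every H3K4me1 island. The AP-2 letters were present in 10.6% against 5.53% and the AP-1 letters in 10.5% against 5.82%. The longer grainyhead-like letters (AACCGGTT) were rare, at 51 regions or 0.170% against 0.0430%, a ratio of 3.94 that rests on 51 and 13 matches. TEAD letters (GGAATGT), read by the partners of YAP, were at 7.56% against 5.18%. These shares describe letters, not bound sites.

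ETS letters (CCGGAAG) were at 1.27% against 0.920%, a ratio of 1.38. GATA letters (AGATAAG) were at 6.55% against 5.59%, RUNX letters (TGTGGTT) at 7.79% against 7.52%, and the E-box CACGTG, which MYC reads, at 4.17% against 3.89%. The oestrogen response element was found in only 10 centres (0.0333%) against 13 windows (0.0430%). NRF1 letters (GCGCATGC), typical of CpG-rich promoters, were fewer at the centres, at 0.453% against 0.864%. The core CGTNTGC, which the study named at HER2 peaks, was at 4.31% against 3.92%. The median GC content was 42% at the centres and 41.5% in the outer windows, and a centre held 3.83 CpG pairs on average against 4.17.

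Against common regions near start sites, the distal regions held more AP-1 (10.5% against 8.13%) and more forkhead letters (11.1% against 8.12%) and fewer AP-2 (10.6% against 11.4%) and ETS letters (1.27% against 1.66%). The regions near start sites had a median GC content of 44.2% and 5.25 CpG pairs per 400 bp. In profile, forkhead matches were present in 5.67% of 200 bp windows at the centre of distal regions and in 2.94% of windows 4 to 5 kb away. The corresponding shares were 5.30% and 3.21% for AP-1 and 5.42% and 3.29% for AP-2.

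**Figure D1:**
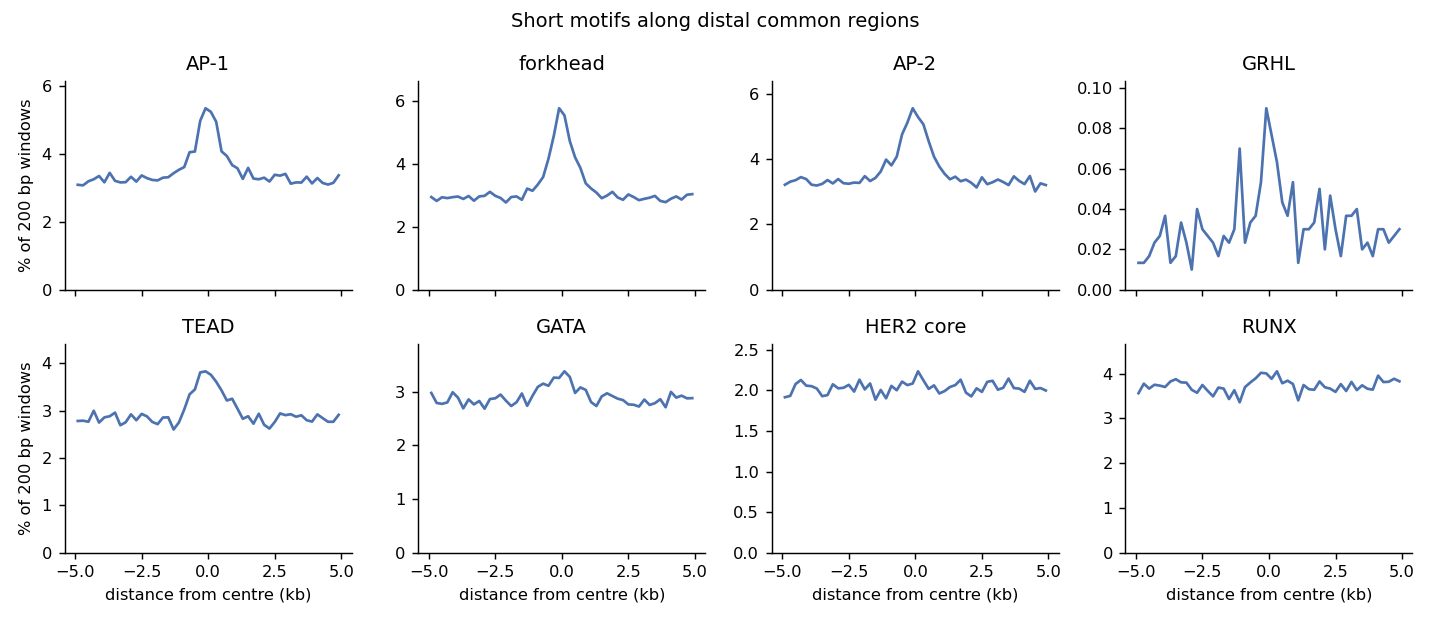
Share of 200 bp windows (y axis, %, from 0, with a scale of its own in each panel) that hold each motif, by distance from the centre of the distal common regions (x axis, kb). The shares of AP-1, forkhead, AP-2 and TEAD peak at the centre, those of the HER2 core and RUNX are nearly flat, and the GRHL curve rests on few matches.

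Distal common regions were mostly between 1 and 5 kb wide. The median width was 2000 bp, with quartiles at 1400 and 3200 bp, in steps of the 200 bp windows from which islands are built. The median of common regions near start sites was the same, 2000 bp. At the threshold of the rule, 168 distal regions were exactly 200 bp wide. A group of 537 regions (1.78%) reached 10 kb or more and held 9.55% of the bases. The islands that covered a region were wider than the region itself, with a median of 4600 bp in both SKBR3 libraries and 3200 bp in both BT474 libraries, so that a region filled a median of 50 to 52.9% of its SKBR3 island and of 75 to 76.5% of its BT474 island.

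The regions lay at a median of 45.7 kb from the nearest protein-coding start site, and 26.1% lay over 100 kb away. The nearest region inside the limit was at 10002 bp and the nearest common region outside it at 10000 bp, and 768 regions lay between 10 and 11 kb while 786 common regions lay between 9 and 10 kb, so the limit cuts through a continuous distribution. The farthest, 2053 kb from EFNA5 (an ephrin ligand) on chromosome 5, had read densities of 2.88 and 2.29 in SKBR3 and of 3.65 and 2.68 in BT474. Midpoints fell in introns for 65.5% of the regions, between genes for 29.5% and in exons for 4.96%, with all annotated genes counted. Against protein-coding genes alone the intronic share was 52.0%. Of the 16558 regions inside a protein-coding gene, 81.3% had the start site of that same gene as their nearest. Starts of long non-coding RNAs lay within 1 kb of 5.79% of the regions, and 17946 regions would remain if every annotated transcript start had to be over 10 kb away.

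Read density was the number of reads in the covering island per kb of island and per 1000000 reads in all islands of that list. The 4 lists held 15097245 to 18714089 reads in islands, and no distal region had a covering island of fewer than 22 reads in any library. The median density of distal regions was 2.82 and 2.77 in SKBR3 (mean 2.80 ± 0.04, SD, n = 2) and 3.01 and 3.09 in BT474 (mean 3.05 ± 0.06, SD, n = 2). The same medians near start sites were 2.80 and 2.79 in SKBR3 and 2.99 and 3.09 in BT474, which differ from the distal ones by no more than the replicates do. Distal islands that held no common region had lower medians, between 2.33 and 2.65. The density is a mean over a whole island, so it can hide peaks within it.

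**Figure D2:**
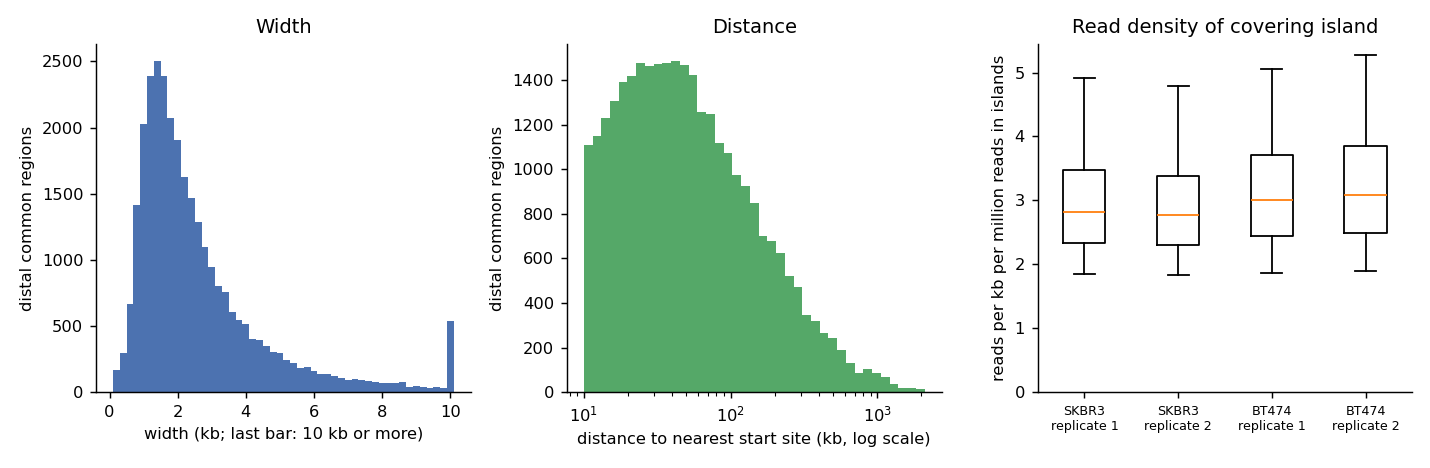
Left, number of distal common regions by width in 200 bp steps, with the last bar holding all regions of 10 kb or more. Middle, number by distance to the nearest protein-coding start site on a log scale. Right, read density per library, with boxes at the quartiles, the line at the median and whiskers at the 5th and 95th percentiles; the medians of the 4 libraries lie between 2.77 and 3.09.

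The distal regions shared between the lines were a part of each line's distal H3K4me1. Of the distal islands, 52.3 and 54.6% in SKBR3 and 42.4 and 45.9% in BT474 contained at least 1 distal common region. The regions made up 25.5 to 27.5% of the bases covered in a library, and islands that contained one held 52.5 and 52.7% of the island reads in SKBR3 and 44.1 and 44.7% in BT474. Across the 30223 regions, densities of the replicates of a line had a Spearman correlation of 0.752 in SKBR3 and 0.750 in BT474, and densities of the different lines of 0.207 to 0.223. These are descriptions across regions, which share islands and libraries and are not independent.

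The widest distal common region spanned 76600 bp on chromosome 20 (52383001 to 52459600), in an intron of a gene that is not protein-coding, 153 kb from the start of BCAS1 (breast carcinoma amplified sequence 1). Its read density was 7.75 and 7.11 in SKBR3 and 10.4 and 10.7 in BT474. The fifth widest, 38200 bp and assigned to ZNF217 (a zinc finger factor of the same amplified interval), was covered in BT474 by the same island, so the BT474 values of these neighbours are one measurement. Between them and BCAS1 lay the fourth widest, of 46800 bp, with densities of 5.22 and 5.34 in SKBR3 and of 10.4 and 10.5 in BT474. The second widest, 58800 bp within TRPS1 (a GATA-type repressor of luminal cells) on chromosome 8, had the opposite order, with 8.30 and 8.34 in SKBR3 and 3.83 and 4.14 in BT474. The third, 47200 bp within SUSD6 on chromosome 14, had 4.64 and 4.45 in SKBR3 and 5.44 and 5.78 in BT474, and its lines did not differ in the edgeR test described below (adjusted p = 0.268).

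The region of highest mean density was a 13200 bp stretch on chromosome 20, 128 kb from BCAS1, at 9.68 and 9.29 in SKBR3 and 28.0 and 30.7 in BT474. The second, 800 bp near TMEM106A on chromosome 17, was high in all 4 libraries, at 11.9 and 14.3 in SKBR3 and 14 and 18.2 in BT474, on island counts of 149 to 262 reads (adjusted p = 0.537, edgeR). Next came regions within MAL2 (25.1 and 17.3 in SKBR3, 5.82 and 6.29 in BT474), upstream of FBXO32 (17.3 and 16.3, 8.30 and 7.62) and upstream of TRPS1 (22.1 and 15.2, 5.71 and 6.0), all on chromosome 8. In SKBR3 these were small pieces, 2.06 to 5.18% of their widest islands, and carry the density of the island. The SKBR3 replicates lay far apart at 2 of them, with an SD of 5.50 for MAL2 and 4.93 for TRPS1.

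Distal common regions tended to lie next to each other. Joined across gaps of up to 12.4 kb, with the next larger gap at 12.6 kb, they formed 17154 clusters, of which 10997 were single regions (36.4% of the regions) and 898 held 5 or more (20.4% of the regions). Width and density were higher in larger clusters, from medians of 1800 bp and 2.88 for single regions to 2800 bp and 3.32 in clusters of 10 or more. The largest, 38 regions over 342 kb between TFAP2C and BMP7 (a bone morphogenetic protein) on chromosome 20, was covered over 79.9% of its length. Its median densities were 4.63 and 4.45 in SKBR3 and 5.88 and 6.51 in BT474. Then followed 33 regions over 312 kb downstream of MYC on chromosome 8, 33 over 288 kb between CEBPB and PTPN1 on chromosome 20, 33 over 243 kb within and beside JARID2 on chromosome 6, and 24 over 163 kb at DIP2B and ATF1 on chromosome 12. Of these, the MYC cluster was the most uneven between lines, at 16.6 and 16.9 in SKBR3 against 3.69 and 3.15 in BT474. Its SKBR3 medians are the values of a single island in each replicate, 289200 and 298000 bp wide, and not of many separate measurements. The DIP2B cluster was level, at 3.25 and 3.32 in SKBR3 against 3.41 and 3.26 in BT474.

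A total of 7301 protein-coding genes were nearest to at least 1 distal common region. RAD51B, a recombination repair gene on chromosome 14, was nearest to 61, all within the gene itself. MYC, the proto-oncogenic transcription factor, was nearest to 54, none of them inside the gene, and TBL1XR1, a subunit of the NCoR corepressor, also to 54. KCNMA1 (a potassium channel) and PARD3 (a polarity protein) had 49 each. Such counts grow with the length of a gene and with the width of the gene desert around it, and nearest does not mean regulated. Chromosome 20 had the most distal common regions per Mb, 16.2, followed by chromosome 7 with 14.3, and the X chromosome (3.15) and chromosome 19 (4.72) the fewest.

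Among the gene lists, luminal genes had many distal common regions around them. Of all protein-coding genes, 64.3% had at least 1 region within 100 kb of a start site, with a median of 1 region and quartiles of 0 and 3. Of 20 luminal epithelial genes 19 had at least 1 and the median was 5. GRHL2, a grainyhead-like factor that keeps epithelial junction genes on, had 19, TFAP2C had 17 and ELF3, an epithelial ETS factor, had 13, while FOXA1 had 12. CDH1, the gene of E-cadherin, was the 1 luminal gene with none, and no common region near a start site was assigned to it either. GATA3 had only 4 within 100 kb but was nearest to 44, spread over 1359 kb. All 6 genes of the oestrogen receptor list had a region, with a median of 7. They ranged from 14 at CA12 (carbonic anhydrase 12), 13 at ESR1 and 8 at AGR2 to 1 at TFF1.

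Of 10 basal and mesenchymal genes, 5 had a distal common region within 100 kb, against 64.3% of all protein-coding genes, and the median was 0.5. VIM, ZEB1, SNAI2, CDH2 and ACTA2 had none, whereas TP63, the basal p63 factor, had 12, KRT14 had 6 and ZEB2 had 4. Genes of other lineages (blood, liver, muscle and neurons) had a region in 12 of 16 cases with a median of 1.5. PTPRC (CD45 of leukocytes) and HNF4A (a hepatocyte factor) had 6 each and SPI1 (PU.1 of myeloid cells) had 4, and MYF5, GATA1 and SYP were among those with none. The lists were small, and neighbouring genes of a list such as KRT8 and KRT18 share their regions.

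For genes of EGF and HER2 signalling the counts are given by role, beside the 64.3% and the median of 1 over all protein-coding genes. All 14 feedback inhibitors had at least 1 distal common region within 100 kb, with a median of 6. SPRED2 (15) and SPRY4 (14), which restrain RAS and RAF activation, DUSP6 (13), an ERK phosphatase, and LRIG1 (12) led the list. Of the 16 immediate early genes 13 had a region, with a median of 2. KLF6, FOSL2 and MYC had 11 each and FOS had 10, and JUNB, EGR2 and EGR4 had none. Of 15 ERBB receptors and ligands 10 (66.7%) had a region, near the share of all genes, also with a median of 2. EGFR (13), HBEGF (8), TGFA and AREG (5 each) had the most. ERBB2 itself, ERBB3, NRG1, NRG3 and NRG4 had none, although common regions near start sites were assigned to ERBB2, ERBB3 and NRG4.

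**Figure D3:**
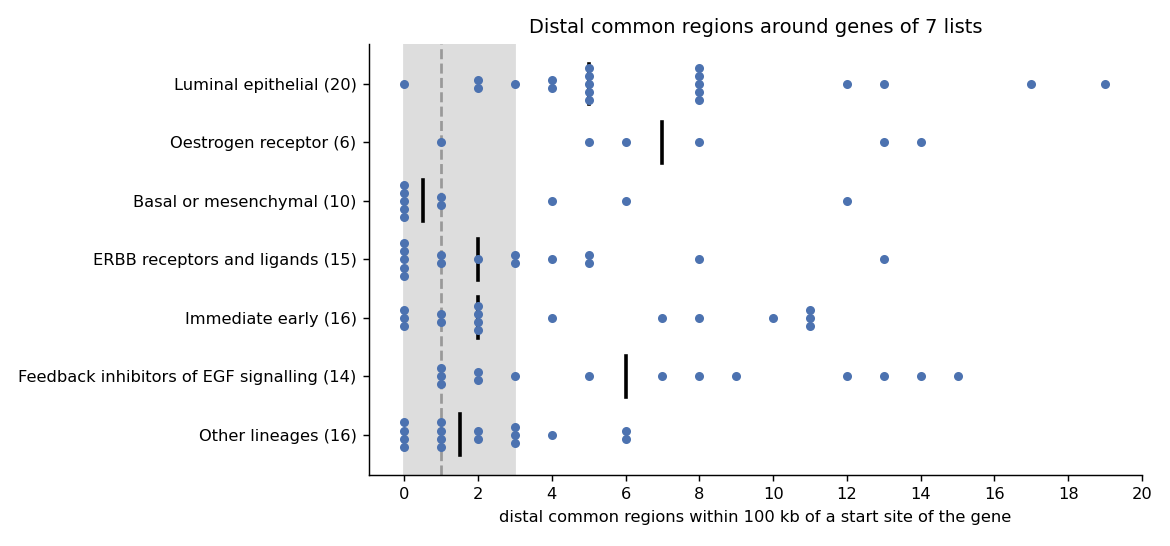
Number of distal common regions within 100 kb of a start site (x axis) for each gene of 7 lists, with the number of genes in parentheses, 1 point per gene and a black bar at the median of the list. The grey band and dashed line are the quartiles and median of all protein-coding genes (0, 3 and 1); the medians of the oestrogen receptor, feedback inhibitor and luminal lists (7, 6 and 5) lie above the band.

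Read density was compared between the lines with edgeR's quasi-likelihood test on the reads of the covering islands, with island width as an offset, over all common regions. Of the 30223 distal regions, 4309 were higher in SKBR3 and 3871 higher in BT474 at a Benjamini-Hochberg adjusted p under 0.05. These are 14.3 and 12.8% of the distal regions, beside 13.6 and 12.2% of all common regions, so the distal share is near that background. The other 22043 did not pass. A change of 2-fold or more was called for 1088 regions higher in SKBR3 and 590 higher in BT474. The shares were 3.6 and 1.95% of the distal regions, beside 3.32 and 1.87% of all common regions. More 2-fold calls higher in SKBR3 were thus also found over all common regions and are not particular to distal ones. Without SKBR3 replicate 1 the calls fell to 2279 and 1679, and without SKBR3 replicate 2 to 2454 and 1809. Without the TMM scaling of libraries, which shifts the median log2 change of the distal regions from 0.00 to -0.12, the calls were 3131 and 5651. Copy number differs between these lines, input reads were not analysed here, and a gain of DNA and a gain of the mark cannot be told apart.

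Regions called between the lines lay on every chromosome tested, with shares that varied among them. Chromosome 1 held the most calls higher in SKBR3, 576, and chromosome 8 held 483. On chromosome 8, 36.2% of 1334 distal regions were higher in SKBR3 and 19.7% higher in BT474, and on chromosome 18, 37.1% of 593 were higher in BT474 and 1.69% in SKBR3. Chromosome 21 had the fewest calls, 4.64% higher in SKBR3 and 3.97% in BT474 of 302 regions. In 5 Mb bins with 20 or more regions, the largest median log2 change in favour of SKBR3 was 1.87, from 120000001 to 125000000 of chromosome 8, where 84 of 93 regions were higher in SKBR3. The largest in favour of BT474 was -1.02, from 45000001 to 50000000 of chromosome 17, where 38 of 53 were higher in BT474. The 5 bins with a median of 1 or more held 9.47% of all calls higher in SKBR3. In the 330 of 470 bins whose median lay within 0.25 of zero, 11.7 and 9.45% of the regions were called higher in SKBR3 and in BT474. Copy number within these bins was not tested. Outside chromosome 8, 3826 distal regions were called higher in SKBR3, and outside chromosome 17, 3713 were called higher in BT474.

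**Figure D4:**
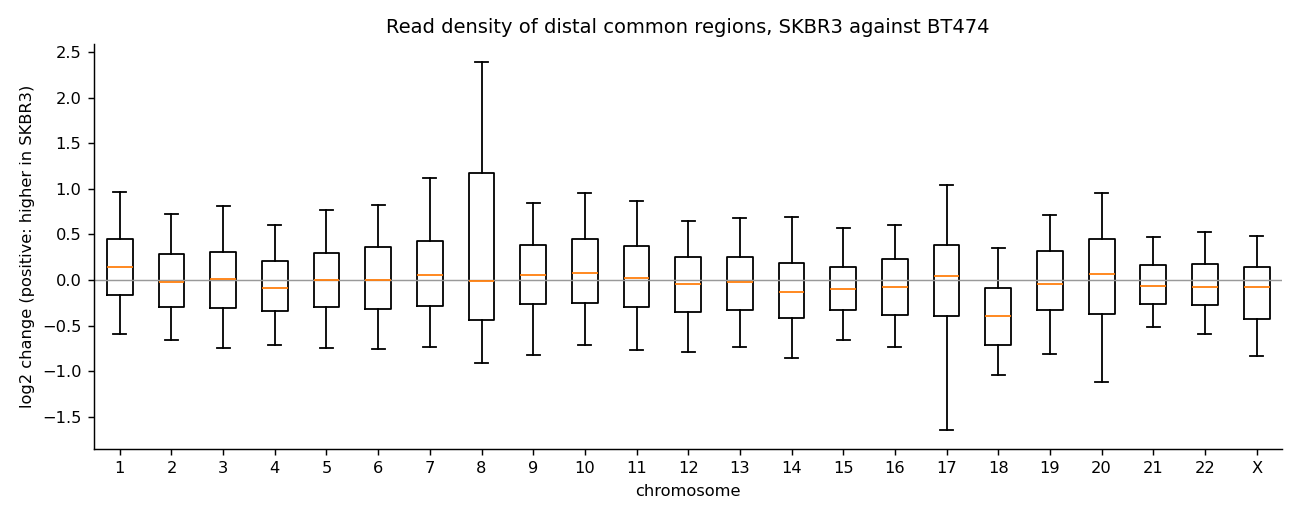
Log2 change in read density of distal common regions between SKBR3 and BT474 (y axis, positive where higher in SKBR3) by chromosome (x axis), from edgeR. Boxes show quartiles with the median, and whiskers the 5th and 95th percentiles over regions; chromosome 8 reaches highest, and the chromosome 18 box lies wholly below zero.

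The 5 distal regions of lowest adjusted p higher in SKBR3, 1 per island, were all on chromosome 8, within ZNF704, NCOA2 (the coactivator SRC-2) and FBXO32 and 10.4 and 237 kb downstream of MYC. At ZNF704 the density was 15 and 15.4 in SKBR3 and 1.77 and 1.95 in BT474, a fitted difference of 8.89-fold (edgeR, adjusted p = 3.51e-05, a value that all 10 regions named here share). Such densities are means over covering islands of very different width in the lines, not over the region alone. For this 1800 bp region the islands were 157200 and 156600 bp wide in SKBR3 and 3600 and 4000 bp in BT474. The region 10.4 kb from MYC was at 13.1 and 13.8 against 1.72 and 1.71, and that within NCOA2 at 15.9 and 15.4 against 2.44 and 2.55. The lines did not overlap at any of these 5 regions, but the regions were picked by lowest p, so this separation comes with the choice. The 5 higher in BT474 were all on chromosome 17, at MMD, SRCIN1, TUBD1, LASP1 and YPEL2. Density at SRCIN1 was 12.9 and 11.9 in BT474 against 1.58 and 1.73 in SKBR3, 6.90-fold, and at TUBD1 11.3 and 14.1 against 1.49 and 1.45, 7.94-fold. The covering islands at SRCIN1 were 91400 and 101400 bp wide in BT474 and 2800 and 3400 bp in SKBR3. SRCIN1 and LASP1 (an actin-binding protein) lie on 17q beside the ERBB2 locus.

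At several genes the called distal common regions lay mostly in the same direction. Of all common regions, 13.6% were higher in SKBR3 and 12.2% higher in BT474. Regions within the same island carry the same count, so the regions of a gene are not independent measurements. At MYC the SKBR3 medians, 16.6 and 16.9, were the values of a single island in each replicate. Of the regions nearest to TRPS1, 47 of 48 were higher in SKBR3 and none higher in BT474, and of those nearest to EXT1 (a heparan sulphate polymerase on chromosome 8) all 38 were. Median densities at TRPS1 were 14.5 and 15.2 in SKBR3 and 3.71 and 3.77 in BT474. The 15.2 of SKBR3 replicate 2 was likewise the value of a single island, of 73092 reads. Of 54 regions nearest to MYC, 36 were higher in SKBR3 and 9 higher in BT474. KCNMA1 had 30 of 49 and ARID1B, a subunit of the BAF remodelling complex, 21 of 41 higher in SKBR3, with none higher in BT474. TBL1XR1 had 21 of 54 higher in BT474 and none in SKBR3. RAD51B, with the most regions, had 11 each way, which became 6 and 12 without BT474 replicate 1, 8 and 6 without either SKBR3 replicate and 9 and 17 without TMM. PARD3 had 7 higher in SKBR3 and 4 in BT474, counts that became 1 and 5 without TMM scaling. With 1 library left out, the counts at TRPS1, EXT1 and KCNMA1 were 47, 34 to 38 and 23 to 27 higher in SKBR3. ARID1B fell to 13 or 14, PARD3 to at most 2 higher in SKBR3, and TBL1XR1 to 8 without SKBR3 replicate 1 and 12 without SKBR3 replicate 2. The MYC regions higher in BT474 became 5 without SKBR3 replicate 1 and 6 without BT474 replicate 1.

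Of 217 regions nearest to genes of the luminal epithelial list, 21 (9.68%) were higher in SKBR3 and 50 (23%) in BT474. These stand against 13.6 and 12.2% of all common regions, and without TMM the counts were 13 and 68. Most of those higher in BT474 belonged to GRHL2, with 19 of 25, and FOXA1, with 8 of 9, and KLF5 had 4 of 11, none of these genes having a region higher in SKBR3. TBX3 (3 of 7), SPDEF (2 of 4), TFAP2B (2 of 20) and EHF (1 of 8) also had regions higher in BT474 and none in SKBR3. Some luminal genes went the other way. TFAP2A, another AP-2 factor, had 7 of 34 higher in SKBR3 and none in BT474, ELF3 had 3 of 6 and none, KRT8 had 2 and 1 of 4, and KRT19 and GRHL1 had 1 and none. TFAP2C had 3 higher in SKBR3 and 8 in BT474 of 36, which became 0 and 5 without SKBR3 replicate 2 and 2 and 14 without TMM. PGR, the progesterone receptor gene and a target of the oestrogen receptor, had 8 of 9 higher in BT474, with median densities of 2.83 and 2.69 in SKBR3 and of 5.18 and 6.03 in BT474. ESR1 had 3 of 13 higher in SKBR3 and none in BT474, with 1 each way without TMM and 1 higher in SKBR3 without SKBR3 replicate 1 or without either BT474 replicate. GATA3 had 4 higher in SKBR3 and 2 in BT474 of 44, which became 2 and 5 without TMM, none without SKBR3 replicate 1 and 1 each without SKBR3 replicate 2. The luminal calls fell to 12 and 33 without SKBR3 replicate 1 and to 9 and 28 without SKBR3 replicate 2, and to 13 and 41 without BT474 replicate 2. FOXA1 had 3 to 6 calls with 1 library left out and GRHL2 15 to 19. KLF5 had none without SKBR3 replicate 1, where its median log2 change was -0.53 against -0.44 with all libraries, and 1 or 2 without another library. PGR had 5 without SKBR3 replicate 1, at a median of -0.92 against -0.99.

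For EGF signalling genes the direction depended on the gene. EGFR had 7 of 13 regions higher in SKBR3 (5 without SKBR3 replicate 1) and 1 higher in BT474, at median densities of 5.21 and 4.23 against 2.97 and 3.15. SPRY4 had 9 of 16 higher in SKBR3 and none in BT474, while DUSP4, an ERK phosphatase on chromosome 8, had 13 of 24 higher in BT474 and none in SKBR3. DUSP4 had 2 calls without SKBR3 replicate 1, 6 without SKBR3 replicate 2 or BT474 replicate 1, and 8 without BT474 replicate 2. Its median log2 change was -0.57 without SKBR3 replicate 1 and -0.50 with all libraries. Why the calls fell was not tested. Over the feedback inhibitors, 13 of 145 regions (8.97%) were higher in SKBR3 and 24 (16.6%) in BT474, beside 13.6 and 12.2% of all common regions, an order that turned to 8 and 3 without SKBR3 replicate 1 and to 9 each without SKBR3 replicate 2, and was 14 each without BT474 replicate 1. Of the 126 regions of immediate early genes, 47 (37.3%) were higher in SKBR3, 36 of which belong to MYC, and 16 (12.7%) were higher in BT474. FOS had none called among 8, LRIG1 1 among 20, and SPRED2 1 among 16.

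HER2 peaks were rare within distal common regions. A peak overlapped 84 regions in SKBR3 with vehicle (0.278%, 95% Wilson interval 0.225 to 0.344), 104 in SKBR3 with EGF (0.344%, 0.284 to 0.417), 298 in BT474 with vehicle (0.986%, 0.881 to 1.1) and 896 in BT474 with EGF (2.96%, 2.78 to 3.16). These intervals cover counting error only. With 1 list per condition there is no replicate check, and the lists differ in length, from 2520 to 29326 peaks. Per Mb of distal common region there were 1.05, 1.28, 3.69 and 11.3 peaks in the same order, with overlap by 1 base counted. Common regions near start sites had 0.931, 1.25, 4.24 and 12.1, and the whole genome 0.915, 0.889, 3.02 and 10.3. Counting any overlap raises the rates in regions but not that of the genome, so small gaps between them are not read as an excess. Of the 86, 104, 301 and 921 peaks that touched a distal region, 76, 99, 277 and 832 had their midpoint inside. The shares of each list inside distal common regions were 3.31, 4.13, 3.52 and 3.14%. The other 29235 regions had no peak in any list, and 988 (3.27%) had one in at least 1 list.

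**Figure D5:**
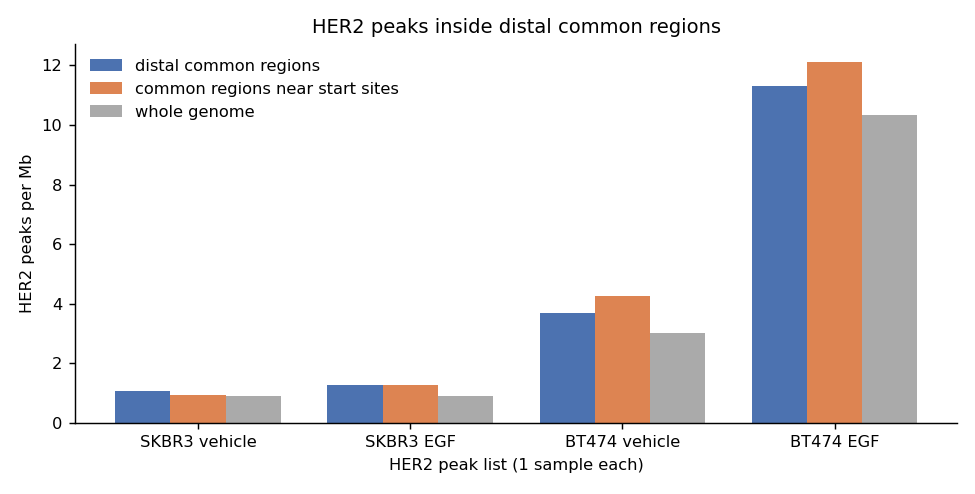
HER2 peaks per Mb (y axis) for the 4 peak lists (x axis), in distal common regions, in common regions near start sites and in the whole genome without gaps. Each bar is 1 list with no replicate, and for BT474 with EGF the bars are at 11.3, 12.1 and 10.3. A peak that overlaps a region by 1 base is counted, which raises the bars of regions against that of the genome.

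Regions with a HER2 peak were wider than the rest, with medians of 3000 to 3400 bp against 2000 bp. A wider region offers more bases for an overlap. In BT474 with EGF, 7.21% of regions of 5 kb or more and 1.06% of those under 1 kb held a peak, while peaks per Mb went the other way, at 9.61 and 16. Overlap by a single base counts, which weighs most in narrow regions. Of 832 BT474 EGF peaks with their midpoint inside a region, 17.5 to 22.2% fell in each of 5 equal parts of it. The ranges were 15.9 to 22.7% of 277 in BT474 with vehicle, 16.2 to 24.2% of 99 in SKBR3 with EGF and 14.5 to 26.3% of 76 in SKBR3 with vehicle. Read density had medians of 3.24 in regions with such a peak and 2.97 in those without. The distance to the nearest start site had a median of 41.4 kb with such a peak and of 45.7 kb over all distal regions. For the SKBR3 vehicle, SKBR3 EGF and BT474 vehicle lists it was 43.3, 48.0 and 45.7 kb.

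At the level of sites, with overlapping peaks of the lists merged, 1021 of 31892 HER2 sites (3.20%) touched a distal common region. Of the 106 that were listed in SKBR3 with EGF, 79.2% were also listed in BT474 with EGF and 11.3% in SKBR3 with vehicle. Of the 307 listed in BT474 with vehicle, 90.2% were also listed there with EGF. Over all its peaks the study likewise reports that most SKBR3 EGF peaks were found in BT474. It also reports a small overlap between treatments in SKBR3, and most BT474 sites of untreated cells found again with EGF. The shares were not counted here over all sites, so they are not shown to be particular to distal regions. Sites in 1, 2, 3 and 4 lists made up 68.2, 24.9, 6.17 and 0.784% of the sites in distal common regions and 71.8, 22.6, 4.85 and 0.774% of all sites. The 8 sites in all 4 lists were nearest to CEBPB, GNRH2, ERMARD, ADIPOR2, MYCN, TBL1XR1, OTOF and TNIK. In 6 distal regions a peak of each of the 4 lists itself reached into the region.

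The midpoint and 50 bp to either side are shown for the 4 such sites with the best summed ranks of score, to let the sequence under HER2 peaks be seen. They are the forward strand of GRCh37, at chr20:48876225-48876325 (CEBPB), chr20:2964659-2964759 (within PTPRA, nearest start GNRH2), chr6:170343479-170343579 (ERMARD) and chr12:1776339-1776439 (ADIPOR2). The CEBPB window is in an intron of the non-coding gene PELATON, the ADIPOR2 window in an intron of another non-coding gene, and the ERMARD window is intergenic. The ERMARD site touches its region at an edge, so that its window lies just beyond it, and the ADIPOR2 window crosses the edge. Capitals mark the core CGTNTGC on either strand, which only the second holds.
CEBPB: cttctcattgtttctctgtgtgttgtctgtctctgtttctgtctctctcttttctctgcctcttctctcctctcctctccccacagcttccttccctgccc
GNRH2: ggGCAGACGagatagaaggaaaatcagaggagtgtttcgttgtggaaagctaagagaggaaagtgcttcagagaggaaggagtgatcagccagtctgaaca
ERMARD: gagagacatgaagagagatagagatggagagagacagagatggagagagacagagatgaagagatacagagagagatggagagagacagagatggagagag
ADIPOR2: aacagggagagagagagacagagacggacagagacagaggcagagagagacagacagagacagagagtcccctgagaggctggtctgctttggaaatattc

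Purines made up 86.1% of the bases of one strand at CEBPB, 71.3% at GNRH2, 87.1% at ERMARD and 72.3% at ADIPOR2. At the other sites in all 4 lists they made up 61.4% (MYCN), 67.3% (TBL1XR1), 71.3% (OTOF) and 67.3% (TNIK). After this was seen, windows with 75% or more purines on one strand were counted. They were 22.1% of the 86 SKBR3 vehicle peaks in distal common regions, 19.2% of 104 in SKBR3 with EGF, 5.32% of 301 in BT474 with vehicle and 10.5% of 921 in BT474 with EGF. In windows 1 kb to either side of the same midpoints they were 0.581, 0, 0.332 and 0.271%, lower in every list, where 0 of 208 windows allows a share of up to 1.44%. HER2 peaks elsewhere had nearly the same shares, 19.2, 19.5, 7.13 and 11%. How well such repeats can be mapped with short reads was not tested.

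The core CGTNTGC was within 50 bp of the midpoint of 2.33% of SKBR3 vehicle peaks in distal common regions (2 of 86), 15.4% of SKBR3 EGF peaks, 16.3% of BT474 vehicle peaks and 10.5% of BT474 EGF peaks. In peaks elsewhere the shares were 3.51, 11.8, 11.9 and 7.38%. In BT474 with EGF the 95% Wilson intervals were 8.71 to 12.7% inside and 7.08 to 7.69% elsewhere, and with vehicle they met. The core and a purine-rich window coincided in 1, 1, 1 and 5 peaks of the 4 lists.

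The HER2 peaks of highest score within distal common regions belonged to few loci. In SKBR3 with vehicle these were at GNRH2 (score 108, 16th of the list), STX16 (107) and CEBPB (92). In SKBR3 with EGF they were at GSE1 (753, 34th of the list), STX16 (744) and CEBPB (501.5). In BT474 the same 3 loci led both lists, PTPN1 (668, 14th), GSE1 (481.5) and RGS9 (424.5) with vehicle and GSE1 (1006, 19th), RGS9 (985) and PTPN1 (791) with EGF. The scale of the score is not stated, and scores are not compared between lists. The GSE1 region, 1800 bp between genes on chromosome 16, had H3K4me1 densities of 1.81 and 1.80 in SKBR3 and of 4.19 and 3.74 in BT474. The STX16 site, in a region of 21400 bp on chromosome 20, was listed in both SKBR3 lists and in neither BT474 list, though its H3K4me1 density was 3.44 and 4.01 in SKBR3 and 6.04 and 6.36 in BT474.

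Counted by nearest gene, PTPN1, a tyrosine phosphatase that acts on receptor kinases, had a BT474 EGF peak in 6 of its 21 distal common regions. MYC had one in 6 of 54, KCNMA1 in 5 of 49 and RAD51B in 5 of 61, beside 2.96% of all distal regions. PTPN1 was chosen after these counts were seen. Of the luminal genes, EHF, FOXA1 and GRHL2 had 1 region each with a BT474 EGF peak. None of the regions nearest to GATA3 (44), TFAP2A (34) or ESR1 (13) held a peak in any list, and TFAP2C (36) had 1, with SKBR3 vehicle. EGFR (13), ERBB4 (10), SPRY4 (16), DUSP6 (24) and LRIG1 (20) had no HER2 peak in a distal common region either. FOS had 2 of 8, KLF6 1 of 32 and DUSP4 1 of 24, all with BT474 EGF, and SPRED2 had 1 of 16 for each of the SKBR3 EGF, BT474 vehicle and BT474 EGF lists.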

How the data were processed

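H3K4me1 was measured in 4 samples (2 per cell line) and HER2 in 4 (1 per line and treatment); both input samples were not analysed here. Samples were grouped by antibody, cell line and treatment in their labels. The regions, gene lists, motifs and tests were chosen with earlier results of these data known. Per the study's methods, single-end reads were mapped to hg19, reads of low mapping quality and blacklisted or greylisted regions were removed, and peaks and islands were called per sample against input of the line. The submitters' processing notes name BWA 0.5.9, MACS 1.4.1, SICER 1.1 and GRCh37, while the methods name another aligner and a later MACS. The authors deposited the count of reads per H3K4me1 island, as whole reads without scaling, and the score of each HER2 peak, whose scale is not stated. The HER2 lists hold no counts, so their depth is unknown.

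Island ends were read as inclusive, since all starts and widths then fall on the 200 bp grid. Covered bases of the 4 lists were intersected, and each common region lay in exactly 1 island per list. GENCODE release 44, lifted to GRCh37, gave the genes and the 78394 start positions of protein-coding transcripts. edgeR 4.0.16 (R 4.3.3) was used with TMM, an offset for island width, no filter and Benjamini-Hochberg adjustment over 49616 regions; a region that shares an island with another shares its counts, and islands that failed to be called are absent by construction. The fit was checked on simulated data. DESeq2 1.42.0 was an alternative. Replicate numbers were not used as pairs: deviations of replicate 1 from the line means correlated at -0.01 between lines. Genes and regions were named by size, density, cluster size, adjusted p, HER2 score or place in a list: the 5 widest, densest and most clustered, the 5 genes nearest to most regions, the 3 highest HER2 peaks of each list, the 5 regions of lowest adjusted p each way, and from each list the 3 genes with most regions and those with none. Other genes named were chosen after their values were seen. 1 gene of the lists is not reported here by name. Sequences and motif counts, with both strands searched, came from GRCh37, in Python 3.11.15 with pysam 0.24.0. Shares carry 95% Wilson intervals, which cover counting error only.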

Additional observations from a re-analysis of the deposited data

How the results depend on the processing

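Island ends read as in a plain BED file (30057 regions), the purine threshold and the removal of a chromosome were added after the data were seen. The 30223 distal common regions became 17946, with 46.3 Mb and 11404 clusters, when start sites of all annotated transcripts were used. The median width was 2200 bp at 1000 bp or more, 2400 bp with 1 replicate of each line required, and 2000 to 2200 bp with 1 library left out. With 1 replicate of each line required, HER2 shares were 0.391% (SKBR3 vehicle), 1.17% (BT474 vehicle) and 3.55% (BT474 EGF). With the higher-scoring 50% of each list they were 0.169, 0.172, 0.579 and 1.70%, and with the midpoint or at least 50% of a peak inside 2.68% for BT474 EGF. The intronic share was 52.0% with protein-coding genes and 64.2% at over 20 kb. Median density was 2.30 in SKBR3 and 2.03 in BT474 over merged domains, and 3.6 and 4.35 per reads under common regions. Calls higher in SKBR3 and in BT474 were 11208 and 9605 with merged domains and 7578 and 6172 without the width offset, of which 236 and 121 were opposite to the reported call. With 1 library left out they ranged from 2279 to 3164 and from 1679 to 2758. DESeq2 gave 3144 and 2681. With the replicate block they were 4666 and 4210, although the numbers do not pair the samples. The cause of these shifts was not tested. Island counts limit the precision at narrow islands, HER2 depth is unknown, and calls rest on 2 libraries per line.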
